A study of Mus musculus with 407 samples.

Results

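The 10 genes described here are markers of the macrophages that live in skeletal muscle, and they were chosen by symbol from the 24458 gene symbols of the count tables. Csf1r, Mpeg1, Cd68 and Lyz2 mark macrophages in general. Cd163, Mrc1, Lyve1, Folr2, Timd4 and Cd209b encode scavenger and lectin receptors of resident macrophages. Each symbol stood on 1 row of the tables, and all 10 were among the 14182 genes that could be tested in every muscle of both sexes.

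Total RNA was sequenced from the diaphragm, gastrocnemius, soleus and tibialis anterior (TA) of male and female C57BL/6J mice at 6 ages, to ask how muscles change with age. The animals carried no transgene and received no treatment, and the 6-month animals of the same muscle and sex were the reference. The ages were 6 and 12 months, 18 and 21 months, and finally 24 and 27 months. There were 98 libraries of the diaphragm, 104 of the gastrocnemius, 103 of the soleus and 102 of the TA, in 48 groups of 6 to 10, with 8 libraries at 6 months and 10 at 27 months in each of the 8 combinations of muscle and sex. The muscles of an age group were taken on the same day, so age and day of collection cannot be told apart. Which muscles belonged to one mouse is not given in the labels.

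Macrophages are phagocytes that clear dying cells and debris and regulate repair, and in muscle they lie in the connective tissue around and between the fibres. They need signals through the receptor encoded by Csf1r, and the transcription factor PU.1 (Spi1) drives much of their gene program. Resident cells that express Mrc1, Cd163, Lyve1, Folr2 or Timd4 are often seeded early in life and renew themselves, while others are replaced from blood monocytes. Whole muscle was sequenced, so fewer cells of a type and less RNA per cell cannot be told apart.

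The promoters of the genes that the age comparisons turn on, and of Mrc1 as the receptor gene with most motif matches, are shown first. In assembly GRCm38.p6, Mpeg1 (perforin-2, a pore-forming protein of phagocytes) lies at chr19:12460770-12465285 on the plus strand and Cd68 (a lysosomal glycoprotein) at chr11:69664213-69666170 on the minus strand. Mrc1 (the mannose receptor, CD206) lies at chr2:14229414-14332023 on the plus strand. Cd209b (a C-type lectin that binds sugars on microbes) lies at chr8:3917655-3926841 on the minus strand. RefSeq gave a promoter for 8 of the 10 genes. The 250 bases before the start are given in the direction of the gene, at chr19:12460520-12460769 (plus), chr11:69666171-69666420 (minus), chr2:14229164-14229413 (plus) and chr8:3926842-3927091 (minus). Capitals mark GAGGAA, the core letters of the PU.1 site, or its reverse complement TTCCTC.
Mpeg1: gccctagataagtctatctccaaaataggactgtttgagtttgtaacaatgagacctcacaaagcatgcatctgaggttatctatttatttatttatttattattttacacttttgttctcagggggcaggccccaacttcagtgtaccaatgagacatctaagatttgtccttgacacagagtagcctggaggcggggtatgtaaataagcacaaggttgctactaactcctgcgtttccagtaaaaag
Cd68: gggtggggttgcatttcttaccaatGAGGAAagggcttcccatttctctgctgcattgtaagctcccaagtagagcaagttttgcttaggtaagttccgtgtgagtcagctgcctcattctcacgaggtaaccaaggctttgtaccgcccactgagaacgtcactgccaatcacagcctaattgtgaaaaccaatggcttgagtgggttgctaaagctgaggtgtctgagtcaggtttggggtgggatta
Mrc1: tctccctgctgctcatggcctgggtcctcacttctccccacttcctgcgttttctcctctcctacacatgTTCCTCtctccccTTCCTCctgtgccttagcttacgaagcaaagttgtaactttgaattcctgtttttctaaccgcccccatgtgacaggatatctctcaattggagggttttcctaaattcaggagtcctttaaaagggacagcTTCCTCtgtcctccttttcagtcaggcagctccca
Cd209b: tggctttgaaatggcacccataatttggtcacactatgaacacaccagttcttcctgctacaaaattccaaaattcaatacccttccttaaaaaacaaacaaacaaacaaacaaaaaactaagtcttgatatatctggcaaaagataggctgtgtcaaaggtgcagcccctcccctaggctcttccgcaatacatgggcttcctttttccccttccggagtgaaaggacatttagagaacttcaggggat
The motif, searched on both strands, was in 7639 of 32851 mouse promoters of this length (23.3%). Among the genes described here, it was in 2 of 9 promoters, a share near that of all promoters. In that of Cd68 it lay 225 bases before the start on the forward strand. In that of Mrc1 it lay at 3 places, 180, 167 and 35 bases before the start on the reverse strand. The Mpeg1 and Cd209b windows did not hold these letters, nor did those of Lyz2, Cd163, Folr2 and Timd4, which are not printed.

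Cd209b has close relatives, the other Cd209 genes, so the study's quantitative PCR assay for it is shown as a sequence particular to the gene. Its 3 oligonucleotides were:
Cd209b forward primer: GAGAGGCAGAAGGAACAAGAGAAG
Cd209b probe: TCCTCCAGGAACTGACCCAGCTG
Cd209b reverse primer: CGCCTGCATGGACTCATTC
All 3 (the reverse primer as its reverse complement) were found in 4 of 4 GENCODE transcripts of Cd209b and in 0 transcripts of Cd209a, Cd209c, Cd209d, Cd209e, Cd209f and Cd209g. How the authors' counting treated reads shared by these genes was not tested.

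Library totals ranged from 38583802 to 300089909 counts, with a median of 72766895. Cd209b, Timd4 and Folr2 were the sparsest of the genes, with median counts of 67, 64 and 109 per library, and 2 libraries had a count of 0 for each. Lyz2, with a median count of 1838, was the deepest. Libraries that stood apart are listed here ahead of the results, but the sets were chosen after the data were seen. In 7 libraries the median gene differed from its muscle by more than 0.4 on the log2 scale, against muscle medians of 0.09 to 0.13. They were replicate 2 at 6 months, 0 at 21 months and 0 at 27 months of the female diaphragm, replicates 2 at 6 months and 6 at 27 months of the male diaphragm, replicate 0 at 27 months of the female gastrocnemius and replicate 7 at 12 months of the male gastrocnemius. In 3 libraries liver transcripts summed to over 1000 CPM, and in 15 soleus libraries fewer than 15000 genes were detected. At 24 months replicate 8 of the males was the highest of its group for Mpeg1, Cd68 and Lyz2 in both the soleus and the TA, and replicate 1 of the 27-month male gastrocnemius was the highest of its group for 9 of the 10 genes, all but Timd4. Beside the results below, values are also given without these libraries where that ends a call or moves a value by over 1.5 times. Leaving out the highest library of a group lowers the mean of that group by construction.

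Levels were compared between genes as CPM (each library's counts as parts of its TMM-scaled total, on a common scale) per kilobase of exon. Lyz2 (lysozyme) stood highest in every muscle of both sexes, with medians of 70.6 in the diaphragm of females and males, 21.3 and 21.0 in the soleus, 16.2 and 17.2 in the gastrocnemius and 13.1 and 13.1 in the TA. Lyve1 (the hyaluronan receptor) followed in the diaphragm and soleus, at 29.9 CPM per kilobase in the female and 27.0 in the male diaphragm. Mrc1 followed in the gastrocnemius and TA, at 3.13 and 3.27 CPM per kilobase in the female and male gastrocnemius. Timd4 (a receptor for phosphatidylserine on dying cells) and Cd209b held the lowest places in all 8 combinations, from a median of 0.131 CPM per kilobase for Timd4 in the male TA to 2.06 in the male diaphragm. Csf1r, Cd68 and Mpeg1 stood close together in the diaphragm, where their medians per kilobase in females were 5.90, 5.82 and 6.11 and their ranges overlapped.

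**Figure D1:**
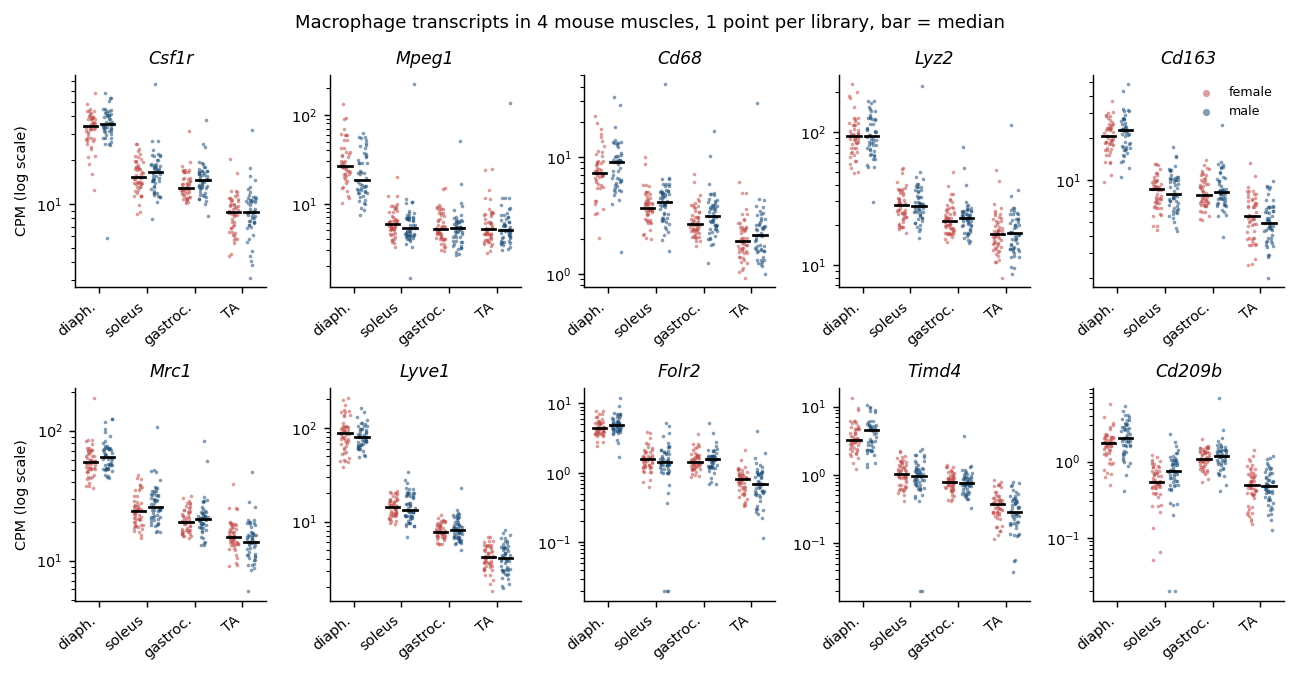
Levels of the 10 genes by muscle (diaph., diaphragm; gastroc., gastrocnemius; TA, tibialis anterior), in CPM on a log axis, with 1 point per library, the sexes in different colours and a black bar at each median. Libraries with a count of 0 are drawn at the bottom of the axis. Every gene was highest in the diaphragm, with Lyve1 showing the widest step from the limb muscles.

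All 10 genes were higher in the diaphragm than in each limb muscle in both sexes (20 of 20 comparisons with each of the gastrocnemius, soleus and TA). For a call, the fold change from edgeR had to exceed 1.5 and the Benjamini-Hochberg adjusted p over all genes (quasi-likelihood test) had to be below 0.05. Muscles differ in many genes, and 51.9% of all genes tested were called between diaphragm and gastrocnemius (30.4% higher in the diaphragm), 39.2% between diaphragm and soleus (25.8% higher) and 55.1% between diaphragm and TA (34% higher). Set against the TA, the diaphragm held 3.82-fold (females) and 3.50-fold (males) as much Csf1r and 3.75-fold and 3.95-fold as much Mrc1. For Timd4 the folds were 9.95 and 12.2, with mean levels of 3.88 and 4.33 CPM in the diaphragm and 0.386 and 0.323 CPM in the TA. Lyve1 differed most, 21.5-fold in females (log2 difference 4.43 ± 0.09, SE) and 17.1-fold in males (4.10 ± 0.10), from mean levels of 91.6 and 82.2 CPM in the diaphragm and 4.24 and 4.29 CPM in the TA. Cd209b stood at the other end between diaphragm and gastrocnemius, with a log2 difference of 0.59 ± 0.11 in females and 0.62 ± 0.13 in males, just past the fold needed for a call (adjusted p = 4.6e-07 and 8.55e-06).

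Among the limb muscles the soleus and the TA lay furthest apart. Of 20 comparisons, 17 were higher in the soleus than in the TA (background 32.7% called, 19.5% higher), and the 3 that were not called were Mpeg1 in both sexes and Cd209b in females. The gastrocnemius was higher than the TA in 11 of 20 (background 14.6% called, 11.9% higher): Csf1r, Lyve1, Folr2, Timd4 and Cd209b in both sexes and Cd163 in males. Between gastrocnemius and soleus only 4 of 20 were called (background 30.1%, 16% higher and 14.1% lower in the gastrocnemius), and they went in opposite directions. Lyve1 was lower in the gastrocnemius, at 0.548 of the soleus level in females and 0.571 in males (adjusted p = 4.29e-21 and 2.19e-16). Cd209b was higher in the gastrocnemius, 1.93-fold in females and 1.62-fold in males (adjusted p = 3e-14 and 7.78e-07). Mpeg1 did not pass in any comparison among limb muscles, with log2 differences between -0.40 and 0.17.

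With age, the general markers Mpeg1 and Cd68 and the lectin receptor Cd209b rose in several muscles, while Csf1r, Cd163, Mrc1, Lyve1 and Timd4 passed in no muscle at 27 months. Of the 80 tests at 27 against 6 months (10 genes in 8 combinations), 14 were called (17.5%), 13 higher and 1 lower. The background was 4.18% of all tests called (2.96% higher, 1.21% lower). At 24 months 20 were called, 19 of them higher (background 3.55%, 2.3% higher), and at 21 months 7, 5 of them higher (background 3.53%, 2.16% higher and 1.37% lower). At 12 and at 18 months 0 were called in edgeR (backgrounds 0.127% and 1.2%), where 6 and 12 tests had an unadjusted p below 0.05. DESeq2 called 1 at each of these ages and limma-voom 0 at each. Every value below compares an older group with the same 6-month libraries, which all the age comparisons of a muscle and sex share.

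**Figure D2:**
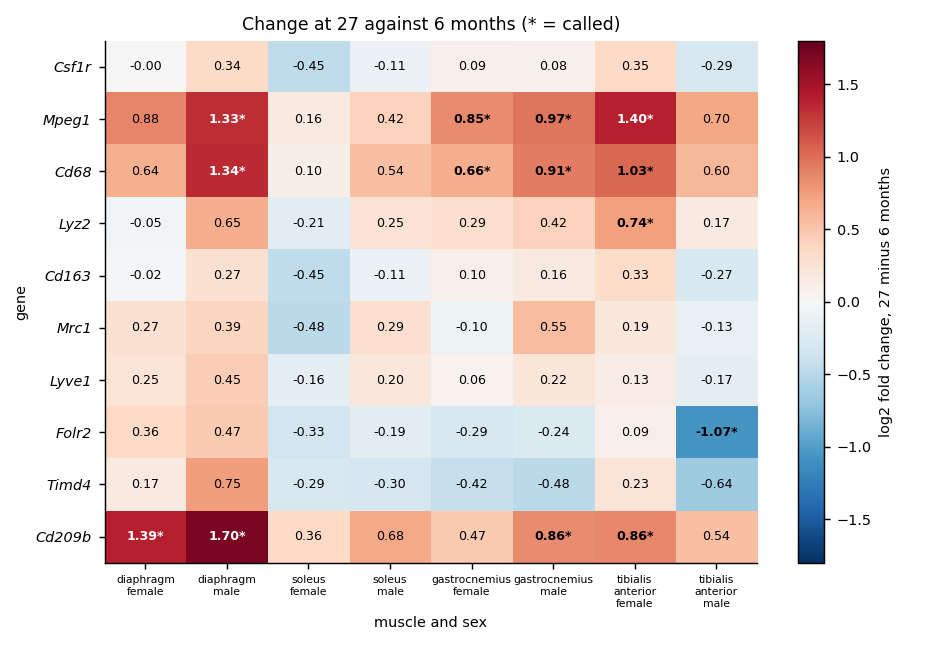
Log2 fold change at 27 against 6 months of the 10 genes (rows) in the 8 combinations of muscle and sex (columns), from edgeR with 10 and 8 libraries, with bold values and an asterisk for calls. Mpeg1, Cd68 and Cd209b are above 0 in all 8 columns and hold 12 of the 14 calls, and the single lower call is Folr2 in the male TA.

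Cd209b rose in the diaphragm of both sexes. In the male diaphragm it ranged from 0.415 to 1.32 CPM at 6 months (median 0.972) and from 1.66 to 4.13 at 27 months (median 3.01), so that all 10 old libraries lay above all 8 young ones. The log2 fold change was 1.70 ± 0.26 (SE, adjusted p = 4.89e-05). In the female diaphragm it went from 0.626 to 1.60 CPM (median 0.935) to 1.21 to 5.75 CPM (median 2.26), with 9 of 10 old libraries above the highest young one, and the log2 fold change was 1.39 ± 0.25 (adjusted p = 7e-04). The male diaphragm was called at 21 months (1.23 ± 0.27), 24 months (1.60 ± 0.26) and 27 months, and its median stood at 1.82 CPM at 12 months, 2.17 at 18, 2.01 at 21 and 2.93 at 24. The female diaphragm was called at 24 months (1.02 ± 0.25) and 27 months.

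In limb muscle Cd209b was called at different ages in different groups. In the male gastrocnemius it ranged from 0.406 to 1.42 CPM (median 0.801) at 6 months and from 1.07 to 2.63 (median 1.42) at 27 months, with 5 of 10 old libraries above the highest young one (log2 fold change 0.86 ± 0.26, adjusted p = 0.013). At 21 months it was 1.33 ± 0.27, with 1 library at 6.98 CPM. In the female gastrocnemius the calls were at 21 months (0.72 ± 0.17) and 24 months (0.60 ± 0.16), and the value at 27 months was 0.47. In the TA the medians of females went from 0.284 CPM at 6 months to 0.823 at 24 months and 0.493 at 27 months. The female TA was called at 24 months (1.47 ± 0.30). At 27 months it was also called, with 0.86 ± 0.30 (adjusted p = 0.033), but not with limma-voom (0.86, adjusted p = 0.0845) or with the replicate number as a block (0.81, adjusted p = 0.0601 in edgeR). The male TA was called at 24 months (1.29 ± 0.29). In the soleus Cd209b passed at no age, with values at 27 months of 0.36 in females and 0.68 in males.

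Mpeg1 rose at 27 months in the male diaphragm, both gastrocnemius groups and the female TA. In the female TA it ranged from 2.80 to 4.60 CPM (median 3.71) at 6 months and from 5.33 to 24.9 CPM (median 7.82) at 27 months, and in the female gastrocnemius from 3.29 to 5.04 CPM (median 4.59) and from 5.46 to 9.65 CPM (median 7.89). In both muscles every old library lay above every young one. The log2 fold changes were 1.40 ± 0.28 (adjusted p = 0.000193) and 0.85 ± 0.19 (adjusted p = 0.000464). In the male gastrocnemius Mpeg1 went from 2.87 to 5.51 CPM (median 3.98) to 5.46 to 16.7 CPM (median 6.39), with a log2 fold change of 0.97 ± 0.33 (adjusted p = 0.0265). Without replicate 1, the highest old library, it was 0.79 and not called (adjusted p = 0.0814). In the male diaphragm Mpeg1 ranged from 10.8 to 22.2 CPM (median 14.2) at 6 months and from 7.40 to 62.0 CPM (median 34.7) at 27 months, with 9 old libraries above and 1 below all young ones. The log2 fold change was 1.33 ± 0.37 (adjusted p = 0.0198). This call was lost in 5 of 15 alternatives, limma-voom among them. It did not pass when runs of sample numbers were added as a covariate (adjusted p = 0.302). With the replicate number as a block the value was 1.31 (adjusted p = 0.0789). The runs, lettered a to c, were uneven over age in this group. At 6 months 2 libraries were of run a and 6 of run b, and at 27 months 6 were of run a, 1 of run b and 3 of run c. Age and run can therefore not be fully told apart there. In the soleus it was 0.16 in females and 0.42 in males and did not pass.

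Cd68 followed the same muscles. In the male diaphragm it ranged from 1.55 to 7.64 CPM (median 5.34) at 6 months and from 3.97 to 32.8 CPM (median 10.3) at 27 months, where 9 of 10 old libraries exceeded the highest young one (log2 fold change 1.34 ± 0.30, adjusted p = 0.00512). With the run covariate, uneven over age in this group, it was 0.81 and not called (adjusted p = 0.375). In the male gastrocnemius it went from 1.99 to 2.62 CPM (median 2.44) to 2.62 to 10.3 CPM (median 3.91), with a log2 fold change of 0.91 ± 0.25 (adjusted p = 0.00577), and of 0.70 without replicate 1 (adjusted p = 0.0294). In the female TA it went from 0.933 to 1.84 CPM (median 1.39) to 1.67 to 4.89 CPM (median 2.63), with a log2 fold change of 1.03 ± 0.24 (adjusted p = 0.00143). The female gastrocnemius had 0.66 ± 0.17 (adjusted p = 0.00204), and 0.50 without the library that stood apart, which is under the fold needed. Lyz2 passed only in the female TA at 27 months (0.74 ± 0.21, adjusted p = 0.00891), where its level went from 8.01 to 15.8 CPM (median 13.7) to 13.3 to 43.1 CPM (median 18.5) and 7 of 10 old libraries lay above the young ones. In the same comparison of the female TA, all 7 genes of a liver list were called higher (median log2 fold change 3.47), as were the 3 genes that could be tested of a neutrophil list (3.08). The summed level of the liver genes went from 1.48 to 21.3 CPM (median 12.4) to 4.71 to 571 CPM (median 68.5), and that of the 8 neutrophil genes from 0.284 to 1.22 CPM (median 0.424) to 0.543 to 30.1 CPM (median 0.921). The part of these cells in the calls of the female TA was not tested.

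At 24 months Mpeg1 was called in 5 combinations and Cd68 in 6, and part of these calls rested on single libraries. Of the 20 calls of all genes at this age, 17 stood without replicate 8 of the males in the soleus and TA. Without the libraries that stood apart 19 did. In the male soleus replicate 8 had 221 CPM of Mpeg1 and 41.9 of Cd68, where the other 9 libraries had 3.23 to 6.98 and 2.50 to 6.61. In the male TA replicate 8 had 138 and 29.0 CPM, where the others had 4.20 to 11.45 and 1.64 to 4.39. The sums of 10 monocyte and recruited macrophage genes in these libraries were 317 and 220.4 CPM, against at most 22.5 and 23.1 in the rest of their groups. With them, the log2 fold changes at 24 months were 2.46 ± 0.58 (Mpeg1) and 1.37 ± 0.35 (Cd68) in the soleus and 2.29 ± 0.47 and 1.72 ± 0.38 in the TA. Without them, the soleus values were 0.07 and 0.47 (adjusted p = 0.944 and 0.284), while the TA values were 0.75 and 0.76 and still called (adjusted p = 0.0145 and 0.0171). Lyz2 in the male TA went from 0.97 to 0.46 (adjusted p = 0.167). Without them, Mpeg1 and Cd68 were also called in the male TA at 27 months, at 0.69 and 0.60 (adjusted p = 0.0127 and 0.039), where the values with all libraries were 0.70 and 0.60 (adjusted p = 0.305 and 0.274). A replicate number joins different mice across ages, since each mouse was killed at 1 age. The 6-month groups had 8 libraries, so the highest numbers at 24 months, replicate 8 among them, had no 6-month counterpart. The block therefore tests no pairing between ages. With the replicate number as a block, 8 of the 20 calls at 24 months ended. They were Mpeg1 in the male gastrocnemius, soleus and TA (0.67, 0.26 and 0.91), Cd68 in the female gastrocnemius (0.57) and the male diaphragm and soleus (1.03 and 0.56), Lyz2 in the male TA (0.64) and Cd209b in the female gastrocnemius (0.58). Cd68 in the male diaphragm also ended without the libraries that stood apart (0.98, adjusted p = 0.0555 in edgeR). At 21 months its call (0.99) ended without the libraries with liver transcripts (0.90, adjusted p = 0.0726 in edgeR).

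**Figure D3:**
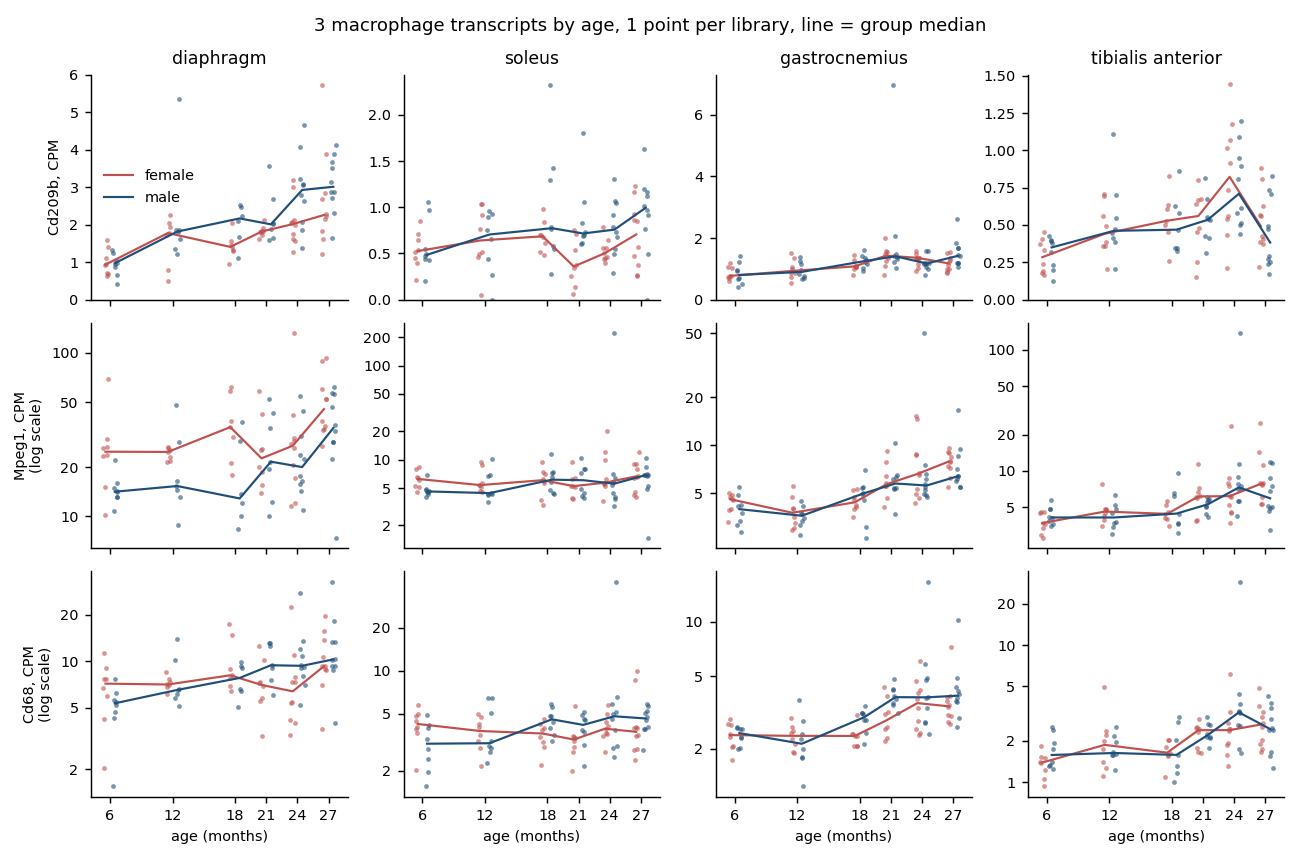
Cd209b (linear axis), Mpeg1 and Cd68 (log axes) in CPM against age in months, with 1 point per library and a line through the group medians of each sex. Cd209b climbs in the diaphragm from a median of 0.935 CPM in females and 0.972 in males, and the single points far above their groups at 24 months in the male soleus and TA are replicate 8.

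Among the receptors other than Cd209b, few passed at any age. Cd163 (the scavenger receptor for haemoglobin bound to haptoglobin) rose in the female TA at 21 months (0.59 ± 0.20) and 24 months (1.03 ± 0.19), from a median of 4.22 CPM at 6 months to 6.90 and 8.13, and stood at 4.87 CPM at 27 months. In the female soleus several markers were lower in old mice. Mrc1 fell by 0.64 on the log2 scale at 21 months (SE 0.18, adjusted p = 0.008), from a median of 34.8 to 21.5 CPM. Timd4 fell by 1.02 (SE 0.24) at 21 months and by 0.80 (SE 0.23) at 24 months, from a median of 1.43 CPM to 0.663 and 0.920. At 27 months Csf1r, Cd163 and Mrc1 had log2 fold changes of -0.45, -0.45 and -0.48 in the female soleus (adjusted p = 0.0398, 0.0386 and 0.0395), under the fold needed for a call. Folr2 (a folate receptor) fell in the male TA at 27 months, by 1.07 (SE 0.35, adjusted p = 0.0291), from 0.541 to 1.39 CPM (median 0.928) to 0.114 to 0.688 CPM (median 0.488), and 7 of 10 old libraries lay below the lowest young one. Lyve1 was called at no age in any muscle.

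A fit of a straight line over all 6 ages drew on every library. Of 80 slopes, 25 had an adjusted p below 0.05 (22 up, 3 down), where 20.9% of all genes did (10.7% up, 10.2% down). Mpeg1 and Cd68 had 5 rising slopes each, in the male diaphragm and in both sexes of the gastrocnemius and TA, from 0.61 ± 0.10 to 1.03 ± 0.28 log2 units per 12 months for Mpeg1 and from 0.44 ± 0.08 to 0.77 ± 0.21 for Cd68. The highest of each was the male TA, where without replicate 8 at 24 months the slopes were 0.46 (Mpeg1) and 0.44 (Cd68) and still passed (adjusted p = 0.000612 and 0.00188). With the run covariate the slope of Mpeg1 there did not pass (0.69, adjusted p = 0.0532), nor did those of Mpeg1 in the male diaphragm (0.56, adjusted p = 0.122) and Lyve1 in the male diaphragm (0.27, adjusted p = 0.137). The runs of the male diaphragm were uneven over age, as given above. Cd209b had 5, in both sexes of the diaphragm (0.69 ± 0.12 and 0.82 ± 0.14) and gastrocnemius (0.34 ± 0.08 and 0.53 ± 0.15) and in the female TA (0.59 ± 0.16). Lyz2 rose in both gastrocnemius groups and the female TA, Cd163 in the female gastrocnemius and TA, Mrc1 in the male gastrocnemius and Lyve1 in the male diaphragm (0.28 ± 0.09). Without the libraries that stood apart, Lyz2 in the female gastrocnemius went from 0.21 to 0.16 and did not pass (adjusted p = 0.0929). The 3 falling slopes were all in the female soleus, for Csf1r (-0.24 ± 0.08), Mrc1 (-0.30 ± 0.08) and Timd4 (-0.31 ± 0.12), the last not passing without the libraries with few genes (-0.29, adjusted p = 0.0672). Folr2 had none.

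To ask whether the genes moved relative to each other, the log2 level of Csf1r, which has no call at 27 months, was subtracted from that of each other gene in every library, and the differences were tested with limma. As Csf1r had no call in these same data, genes called higher with age tend to be higher relative to it. The counts below therefore restate the age calls in part. Of 72 tests, 17 had an adjusted p below 0.05 (15 higher, 2 lower; 23.6%), where 8.66% of all genes did (7.08% higher, 1.58% lower). The groups were unlike in this background. In the female soleus, where Csf1r itself had -0.45, 46.6% of all genes were higher relative to it, against 0.137% to 3.4% in the other 7 groups. The 3 genes that passed in the female soleus are therefore read as no result about them. They were Mpeg1, Cd68 and Cd209b, whose own log2 fold changes there were 0.16, 0.10 and 0.36, none of them called. Relative to Csf1r, Mpeg1 was higher at 27 months in both sexes of the gastrocnemius (0.79 ± 0.14 and 0.86 ± 0.18) and TA (0.93 ± 0.21 and 0.97 ± 0.25) besides the female soleus (0.60 ± 0.17). Cd68 was higher in these 5 groups and in the male diaphragm, by 0.49 ± 0.18 (female soleus) to 0.92 ± 0.23. Cd209b was higher in both diaphragm groups (1.27 ± 0.31 in females, 1.24 ± 0.27 in males), the male gastrocnemius and, with 0.75, the female soleus. Folr2 and Timd4 were lower relative to Csf1r in the female gastrocnemius (-0.42 ± 0.11 and -0.50 ± 0.15). Lyz2, Cd163, Mrc1 and Lyve1 passed in no group.

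**Figure D4:**
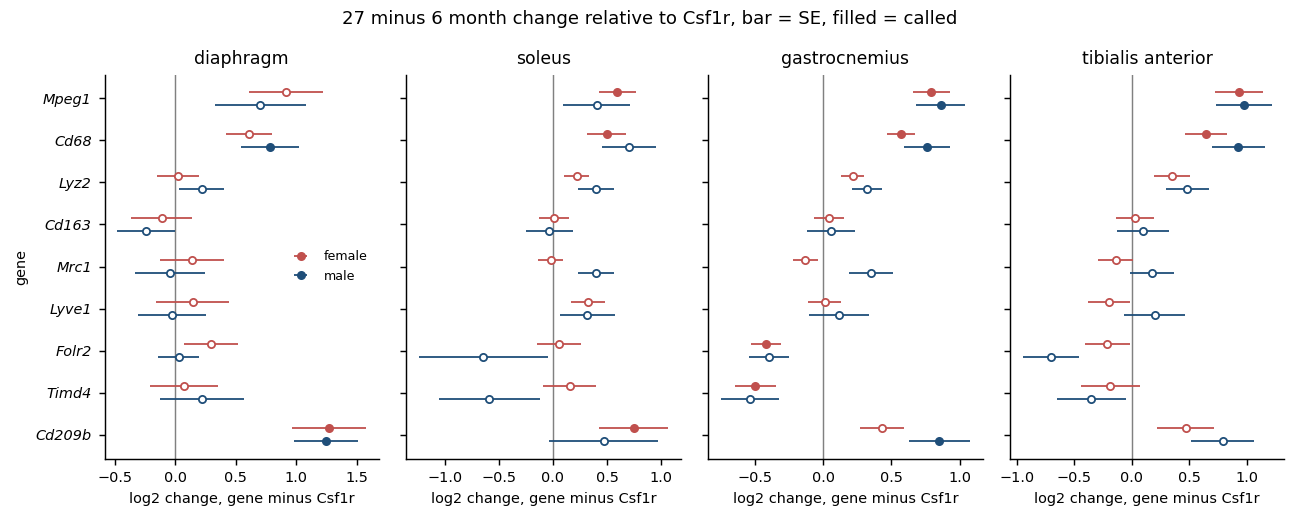
Change at 27 against 6 months of the 9 other genes relative to Csf1r, in log2 units with the standard error as bars, for each muscle and sex, with filled points for an adjusted p below 0.05. Mpeg1, Cd68 and Cd209b hold 15 of the 17 filled points, all above 0, and 3 of these are in the female soleus, where 46.6% of all genes were also higher relative to Csf1r.

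Whether the changes at 27 months differed between muscles or between the sexes was tested as an interaction. The diaphragm, soleus and TA were each compared with the gastrocnemius, and 0 of 60 tests passed in edgeR, in DESeq2 or in limma-voom, with 6 unadjusted p below 0.05 and a lowest adjusted p of 0.119 (Timd4 in the male diaphragm, difference 1.26 ± 0.48). The background was 3.32% of genes called in the diaphragm, 3.05% in the soleus and 0.285% in the TA. For Cd209b the change in the diaphragm exceeded that in the gastrocnemius by 0.93 ± 0.37 in females and 0.85 ± 0.44 in males (adjusted p = 0.17 and 0.327). Between the sexes 0 of 40 changes differed by any of the 3 tools, with 6 unadjusted p below 0.05 (background 1.02%), and the lowest adjusted p was 0.156 (Mrc1 in the gastrocnemius, 0.67 ± 0.25). There, replicate 1 of the males at 27 months had 83.0 CPM of Mrc1, where the others had 17.2 to 28.7. The male change of 0.55 was as low as 0.24 among the alternatives. The single lower call of Folr2, in the male TA, had a difference between males and females of -1.15 ± 0.44 (adjusted p = 0.164). A call in one muscle or sex and none in another is therefore not a tested difference between them.

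Mean levels over all ages hardly separated the sexes. None of 40 comparisons passed the fold of 1.5 in edgeR, where 5.64% of all genes did, although 5 had an unadjusted and 4 an adjusted p below 0.05. Mpeg1 was lower in the male than in the female diaphragm by 0.52 ± 0.16 (mean 24.1 against 34.0 CPM, adjusted p = 0.0112). Cd209b was higher in males in the diaphragm (0.30 ± 0.11, adjusted p = 0.0369) and soleus (0.43 ± 0.17, adjusted p = 0.0462), and Cd68 in the gastrocnemius (0.21 ± 0.09, adjusted p = 0.0327).

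Libraries of a group also differed from each other. After the mean of each muscle, sex and age was subtracted from log2 CPM, the correlation over all libraries was highest between Csf1r and Lyz2 (Pearson's r = 0.85) and lowest between Mpeg1 and Lyve1 (0.12). Mpeg1 and Lyz2 had 0.78, Cd68 and Lyz2 0.78, Cd163 and Mrc1 0.64, and Timd4 and Cd209b 0.54. Among 14172 other genes, the most like Mpeg1 were Ctss (a lysosomal protease, r = 0.92), Lcp1 and Cybb. Those most like Csf1r were C1qa and C1qb (the complement component C1q, 0.86 and 0.83) and Serping1, and those most like Cd68 were Laptm5 (0.81), Itgb2 and C1qb. Lyz2 was most like Pirb (0.85), Laptm5 and Ctss. F13a1 (coagulation factor XIII A chain) was the most like both Mrc1 (0.84) and Cd163 (0.70) and stood second for Folr2 (0.61) after Adgre1, the gene of F4/80 (0.62). Cd209b was most like Clec10a (0.59), Cd209a (0.55) and Cd209d (0.51), all lectin receptors, and Clec10a was also among the 3 most like Timd4 (0.57). Lyve1 was most like Lrrn4cl (0.62) and Mmrn1, a lymphatic endothelial gene (0.61). The libraries share depth, cell makeup and quality, and no p is given.

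Several of the genes are known outside macrophages, so lists of markers of other cells were summed in each library. Lyve1 is also a marker of lymphatic endothelium. A list of 6 lymphatic genes (Prox1, Flt4, Pdpn, Ccl21a, Mmrn1, Reln) had a median sum of 405 CPM in the female and 326 in the male diaphragm, against 28.6 to 107 in the limb muscles. Lyve1 followed that sum with r = 0.92 over the 98 diaphragm libraries, and with 0.45, 0.12 and 0.49 in the gastrocnemius, soleus and TA. The soleus sum rests in part on Prox1. Its median was 39.6 CPM there, against 19.2 in the diaphragm, 4.18 in the gastrocnemius and 1.24 in the TA. Flt4 had 8.77, 8.33 and 9.24 CPM in the soleus, gastrocnemius and TA. The r of the soleus was not computed without Prox1. At 27 against 6 months 1 of 48 tests of the lymphatic genes was called, lower. The part of lymphatic endothelium in the level of Lyve1 was not tested.

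Mpeg1 is also expressed in lymphocytes. A list of 6 B and plasma cell genes summed to a median of 54.0 CPM in the female and 36.6 in the male diaphragm, and to at most 1.55 in limb muscles. In the male diaphragm it went from 8.66 to 47.2 CPM (median 23.1) at 6 months to 0.635 to 180.3 CPM (median 115) at 27 months. Over the diaphragm libraries Mpeg1 had r = 0.78 with this sum and 0.84 with that of 8 T and NK cell genes. Such values were not particular to Mpeg1, with 0.66 and 0.67 for Lyz2, 0.54 and 0.52 for Timd4 and 0.45 and 0.54 for Cd68. Csf1r had 0.23 and 0.31. Those of Cd163, Mrc1, Lyve1, Folr2 and Cd209b were negative with both sums (Cd209b -0.06 and -0.09). In the gastrocnemius, where the sums had medians of at most 1.55 and 0.452 CPM, Mpeg1 had 0.52 and 0.65. All 6 B and plasma cell genes and all 8 T and NK cell genes were detected in at least 1 library of every muscle and sex. The part of lymphocytes in the rise of Mpeg1 was not tested. Mesothelial genes, of the layer that covers the diaphragm, had median sums of 89.5 and 105 CPM there and under 1 CPM in limb muscles. The part of mesothelium in the muscle differences was not tested.

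**Figure D5:**
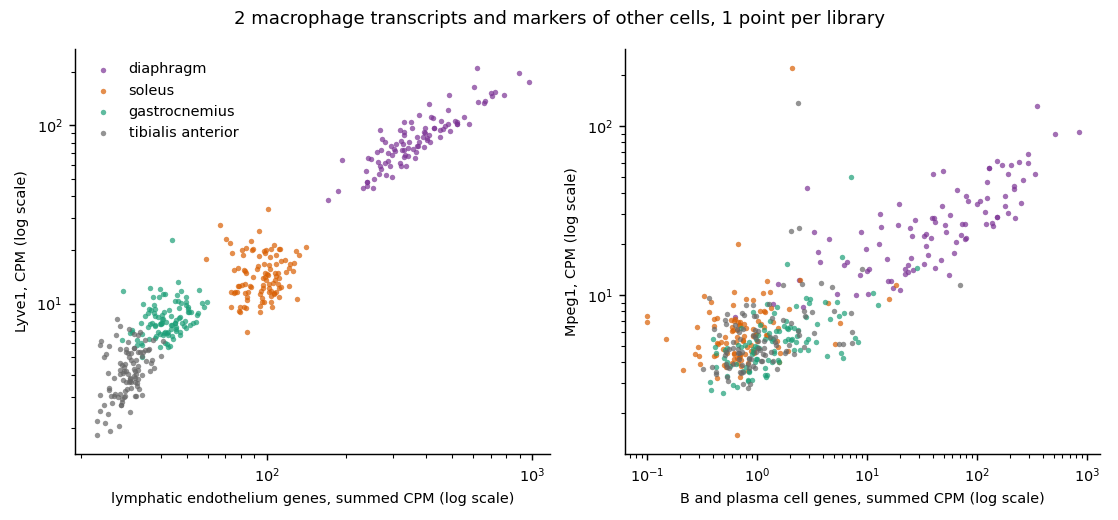
Level of a macrophage gene (vertical, CPM) against the summed level of a marker list of another cell type (horizontal, CPM), both on log axes, with 1 point per library coloured by muscle. Sums too low for the axis are drawn at its left edge. The diaphragm libraries sit to the right of the limb muscles, with lymphatic sums of 169.6 to 970.1 CPM in females and 239.5 to 605 in males.

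Other macrophage genes were counted from lists of named genes, at 27 against 6 months, beside the background of 4.18%. These lists and those of other cells were chosen with earlier results of these data known, so the counts are descriptive only. Among 10 monocyte and recruited macrophage genes, 19 of 77 tests were called, all higher. Ly6c2 (a surface marker of blood monocytes) rose in 4 of 8 combinations, by up to 4.06 ± 0.83 in the female TA (where the liver and neutrophil lists also rose), Itgal in 4 and Ccl2 (the monocyte chemokine) in 3. Among 9 genes of lipid-associated macrophages, 20 of 72 were called, all higher, with Lgals3 (galectin-3) in 5, and Mmp12 (a macrophage elastase) and Itgax (CD11c) in 4 each. Among 16 other resident scavenger genes, 20 of 122 were called, all higher. Ccl8, a chemokine, rose in 6 combinations, from 1.44 ± 0.43 in the female gastrocnemius to 3.94 ± 0.70 in the male diaphragm, Vsig4 (a complement receptor) in 5 and Siglec1 in 2. Among 16 other general macrophage genes, 15 of 128 were called, all higher, with Cx3cr1, Fcgr1 and Ctss in 2 each. Of the 4 general markers described here, 9 of 32 tests were called, and of the 6 receptors 4 higher and 1 lower of 48.

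The ligands of Csf1r and macrophage transcription factors gave 10 higher and 1 lower of 64. Runx1 made up 7 of the 10, with log2 fold changes of 0.85 to 2.30 where called and 0.12 in the female diaphragm, and it is also a gene that muscle fibres are known to switch on after denervation. Irf8 rose in 2 and Spi1 (PU.1) in 1. The ligand genes Csf1 and Il34, named after their values were seen, were called in none of the 8, with values of -0.12 to 0.31 for Csf1 and -0.34 to 0.28 for Il34.

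Lists of other immune cells moved in the same comparison, and their part in the results above was not tested. The T and NK cell list had 7 of 30 tests called, B and plasma cells 6 of 44, dendritic cells 5 of 43 and neutrophils 13 higher and 1 lower of 36. Jchain (the joining chain of IgA and IgM) and Csf3r (the G-CSF receptor of neutrophils) rose in 4 combinations each. Fibroblast genes gave 10 lower of 40, with Col3a1 (type III collagen) lower in 5 and Pi16 in 3. Mast cell genes gave 4 lower of 40 (Cpa3 in 2), and adipocyte genes 2 higher of 40. Of blood endothelial and of erythroid genes 0 of 40 and 0 of 37 tests were called in edgeR, with 11 unadjusted p below 0.05 in each list. Liver genes gave 7 higher, all in the female TA, and 1 lower of 56. Kupffer cell genes gave 2 higher of 13, mesothelial genes 1 higher of 22 and muscle fibre genes 4 higher of 48. Peritoneal macrophage genes gave 3 lower of 31, 1 each in the female gastrocnemius, soleus and TA and 0 in the diaphragm. Prg4 made up 2 of these and Alox15 1. Prg4 had medians of 20.0, 34.8 and 12.7 CPM in the gastrocnemius, soleus and TA. Whether peritoneal macrophages changed was not tested. The median log2 fold change over all genes tested lay between -0.03 and 0.03 in the 8 combinations.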

How the data were processed

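Total RNA of muscles from C57BL/6J mice was measured by strand-specific sequencing after removal of ribosomal RNA. The authors mapped the reads to mm10 with ArrayStudio (version not given in the sources used here) and deposited raw read counts per gene symbol from their own gene model, built on RefSeq, in 1 table per library with 25091 rows. Rat libraries of the study are not analysed here. Groups came from the labels. The 10 genes, the marker lists and the tests were chosen with earlier results of these data known.

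Of symbols on several rows, the row with the largest total was kept, leaving 24458. Each combination of muscle and sex was fitted over all 6 ages with edgeR 4.0.16 in R 4.3.3 (filterByExpr, TMM scaling, quasi-likelihood test), and p-values were adjusted by Benjamini-Hochberg over all 14487 to 16193 genes of a fit. Calls needed a fold above 1.5 and an adjusted p below 0.05. Slopes, interactions and changes relative to Csf1r needed the adjusted p alone. Those relative to Csf1r used limma 3.58.1 on log2 CPM with a prior count of 2. CPM are TMM-scaled and intervals are standard errors unless named. The labels give only replicate numbers, but the paper counts each sample of a muscle as a separate animal. The p-values therefore measure the spread between mice of a group, with technical spread included. No library was left out of the values given as the result, and no pair of libraries was identical. Counts of 49 to 30331 stand behind the values of all genes but Folr2, Timd4 and Cd209b, whose lowest count is 0.

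All 10 genes are named in every comparison. Of each other list at most the 3 genes called in the most combinations at 27 months are named, and of each gene the 3 most correlated ones. Alternatives were limma-voom, DESeq2 1.42.0, other scaling and filters, thresholds, a replicate block, a run covariate and log age, and 5 sets of left-out libraries chosen after the data were seen. Scripts were tested on simulated data. Sequences are from RefSeq (GRCm38.p6) and the study's assay, exon lengths from GENCODE vM21.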

Additional observations from a re-analysis of the deposited data

Results flagged for a closer look

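Of 160 sets of libraries (10 genes at 6 and 27 months in 8 combinations), 27 held a library whose gap to the next was wider than Dixon's 95% limit, where chance alone gives about 1 in 20. Values are CPM, with the range of the other libraries of the group. In replicate 0 of the female diaphragm 27 months group, Csf1r was 16.1 (27.8 to 45.2 in the others) and Mrc1 was 180.1 (44.1 to 73.5 in the others). In replicate 0 of the female gastrocnemius 27 months group, Csf1r was 31.6 (11.9 to 15.1 in the others), Cd68 was 7.23 (2.72 to 3.88 in the others), Lyz2 was 49.7 (18.8 to 26.8 in the others) and Folr2 was 3.59 (0.877 to 1.67 in the others). In replicate 2 of the male diaphragm 6 months group, Csf1r was 5.82 (31.1 to 39.9 in the others), Cd68 was 1.55 (4.31 to 7.64 in the others), Mrc1 was 123 (49.3 to 55.7 in the others) and Folr2 was 1.70 (3.81 to 5.24 in the others). In replicate 1 of the male gastrocnemius 27 months group, Mpeg1 was 16.7 (5.46 to 9.40 in the others), Cd68 was 10.3 (2.62 to 4.91 in the others), Cd163 was 24.7 (7.49 to 13.1 in the others), Mrc1 was 83.0 (17.2 to 28.7 in the others) and Lyve1 was 22.9 (6.36 to 12.0 in the others). In replicate 2 of the male soleus 27 months group, Mpeg1 was 1.48 (4.93 to 10.4 in the others), Folr2 was 0 (1.01 to 4.68 in the others), Timd4 was 0 (0.699 to 1.96 in the others) and Cd209b was 0 (0.489 to 1.63 in the others).

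Single genes stood apart in other libraries. Csf1r was 12.4 in replicate 2 of the female diaphragm 6 months group, where the others had 28.3 to 48.5. Mpeg1 was 7.40 in replicate 1 of the male diaphragm 27 months group, where the others had 22.5 to 62.0. Mpeg1 was 6.91 in replicate 6 of the male soleus 6 months group, where the others had 3.98 to 4.92. Cd68 was 2.02 in replicate 4 of the female soleus 6 months group, where the others had 3.68 to 5.78. Lyz2 was 8.01 in replicate 6 of the female tibialis anterior 6 months group, where the others had 11.6 to 15.8. Mrc1 was 43.6 in replicate 0 of the female soleus 27 months group, where the others had 14.9 to 26.2. Lyve1 was 5.77 in replicate 2 of the female gastrocnemius 6 months group, where the others had 7.34 to 8.97. Timd4 was 0.166 in replicate 4 of the male tibialis anterior 6 months group, where the others had 0.334 to 0.594. The counts of 0 for Folr2, Timd4 and Cd209b in replicate 2 of the male soleus at 27 months allow a level of up to 0.0462 CPM each (3 counts), which covers counting error only, and that library is among those with few genes detected. No change with age differed between muscles or sexes past the threshold. The reasons for these values were not tested.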

How the results depend on the processing

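Of 235 recomputed counts of calls, 215 stayed within 1.5 times of the value reported and 20 did not. With DESeq2 there were 1, 1 and 12 calls at 12, 18 and 21 months, and with the run of sample numbers as a covariate 1, 1 and 11. Bonferroni adjustment left 0 calls at 21 months, 2 at 24, 2 at 27 and 6 slopes. An adjusted p below 0.01 left 9 calls at 27 months and 8 relative to Csf1r, and Cd68 or Mpeg1 as the reference gene gave 27 each. A lower fold limit gave 11 differences between gastrocnemius and soleus, 17 between gastrocnemius and TA and 2 between the sexes, and the run covariate 7 between gastrocnemius and soleus. Without the libraries with few genes 1 interaction of muscle and age was called.

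Libraries with the same replicate number deviated together in many pairs of limb muscles, with a median r of 0.31 between gastrocnemius and TA (91.2% of pairs over 0.1, lowest -0.27), 0.23 between gastrocnemius and soleus (69.9%) and 0.19 between soleus and TA (76.2%), against -0.04 to -0.03 for other numbers. This is a hint from the data, not the design, that a number may mark a mouse across limb muscles. The median was 0.02 to 0.04 between diaphragm and limb muscles, 0.04 between the sexes and -0.04 to 0.12 between ages, the pairs that the age comparisons would use. Across ages a number cannot mark a mouse, since each mouse was killed at 1 age. The fit without the block is the one reported, as not every pair passed 0.1. Comparisons and interactions of muscles thus treat libraries of different muscles as independent, which a shared mouse would break. With the block, their counts of calls stayed within 1.5 times of those reported. With the replicate block 12 calls stood at 24 months in place of 20, and 12 of the 14 at 27 months were kept. The others were Mpeg1 in the male diaphragm and Cd209b in the female TA (0.81, adjusted p = 0.0601 in edgeR). Scaling by DESeq2's size factors shifted the median gene by at most 0.02 in size.

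Of the values of single genes, 2266 kept direction and side of the threshold, 61 lost it, 25 gained it and 28 changed sign. At 27 months these were Cd163 in the male gastrocnemius without replicate 1 (-0.0285), Csf1r in the female diaphragm with limma-voom (0.0390), the block (0.0128) and the run covariate (0.0337), Lyz2 there (0.0710, 0.0216 and 0.0245), Csf1r in the female gastrocnemius without the libraries that stood apart (-0.0951), and with the block Cd68 (-0.0739) and Mpeg1 (-0.00999) in the female soleus. Among slopes they were Cd163 in the male gastrocnemius with limma-voom (-0.0147), log age (-0.0312 per unit of natural log), the block (-0.00514) and without replicate 1 (-0.0624), Csf1r in the male soleus with limma-voom (-0.00827), the block (-0.0493), the run covariate (-0.0198) and without replicate 8 (-0.0602), and Csf1r in the male TA with limma-voom (-0.0317) and without replicate 8 (-0.0320). They were also Cd68 in the female soleus with the block (-0.0602), Folr2 in the male gastrocnemius with a mean of at least 1 CPM (0.00412) and without the libraries that stood apart (0.00904), Mrc1 in the female gastrocnemius with limma-voom (0.00133) and at least 1 CPM (0.00104), and Timd4 in the female diaphragm with limma-voom (-0.0835), log age (-0.0331) and without the libraries that stood apart (-0.0389). The cause was not tested. A mean of at least 1 CPM removed some results of the sparsest genes, and depth limits Folr2, Timd4 and Cd209b most.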
